A study of Mus musculus with 63 samples.

Results

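Gene expression was compared between nontransgenic mouse hearts of 5 weeks and of postnatal day 21 (P21), the weeks after weaning in which the young heart takes on its adult programme. The libraries were those whose titles place them in the library batch of the postnatal day 1 (P1) samples, 4 of 5 weeks and 3 of P21. They are 7 of the 63 libraries of the series, and no measured value was used to choose them. All come from the FVB/N strain background, carry no transgene, and received no agent named in the labels. The labels give the tissue as left ventricle, and the protocol gives ventricular apexes as the piece that was frozen. All 3 P21 libraries and 3 of the 4 of 5 weeks were prepared again from total RNA that had been used before, and 5wk_ntg_15933-3 was prepared in this batch only. The P21 hearts share a number in their titles, and the labels do not say what it marks, so p-values measure the spread between these hearts. Where values of P1 are given, they come from 6 nontransgenic P1 libraries of the same batch, labelled as whole heart. Where another genotype is given, its values come from 3 hearts of 5 weeks and 5 of P21 labelled tet-off control, a driver line whose promoter the labels do not name, with each age in the batch of its own. The wider study concerns human Mfn2 transgenes and mitophagy in the young heart, and the age comparison gives the course of the heart without them.

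In the weeks after birth, heart muscle cells leave the cell cycle, move away from glucose and lactate as fuel, and come to burn fatty acids and ketone bodies in a dense mitochondrial network. Fetal growth factors and fetal muscle isoforms decline, ion channels and the calcium release system reach their adult levels, and the collagen scaffold is laid down and then made more slowly. The mitophagy proteins PINK1, Parkin and Mfn2 act in that period to replace fetal mitochondria. At weaning the diet of the pup turns to carbohydrate, away from the fat of milk.

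Total counts ran from 5836840 to 10425806 in the 5-week libraries and from 9143149 to 12522780 in the P21 libraries. The 45S ribosomal precursor took 2.25% to 2.93% of counts at 5 weeks and 2.23% to 5.28% at P21. Levels are given in CPM, counts scaled to library size with TMM factors, and are compared between libraries, never between genes. Cardiomyocyte markers were present in all 7 libraries (summed level of 10 ventricular markers 114610.0 to 125430.0 CPM at 5 weeks and 89297 to 110120.0 CPM at P21). Sex is not in the labels: Xist, the RNA of the inactive X chromosome, was at 160.4 and 213 CPM in 5wk_ntg_15933-3 and 5wk_ntg_15935-10 and 273 CPM in P21_ntg_10547-1, against 4.44 to 25.6 CPM in the other 4. 3 libraries stood apart from their group: 5wk_ntg_15928-7 in adipocyte and airway genes, P21_ntg_10547-2 in atrial genes, and P21_ntg_10547-1 in cell cycle genes. In bulk tissue, fewer cells of a type and less RNA per cell cannot be told apart.

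Of 13534 genes tested, 3035 (22.4%) were called, that is, had a Benjamini-Hochberg adjusted p under 0.05 by edgeR's quasi-likelihood F test. Of these, 1573 were higher at 5 weeks (11.6% of the genes tested) and 1462 were lower (10.8%). These shares are the background for every list below when all libraries of the shared batch are used. A list count with a library left out has a lower background of its own, since fewer genes were then called. The changes were modest, with a median log2 fold change of 0.46 among the genes that rose and -0.63 among those that fell. Only 497 of the called genes changed at least 2-fold, 163 of them upward and 334 downward. The earlier step in the same batch, P21 against P1, called 7794 genes (57.6%, 29.0% higher and 28.5% lower). The count for the later step leaned on P21_ntg_10547-1, without which 1426 of 13735 genes were called, 761 higher and 665 lower. That library had Xist at 273 CPM, against 25.6 and 4.44 CPM in the other P21 hearts. The 45S precursor took 5.28% of its counts, against 2.23% and 4.19%. Mitochondrial transcripts took 8.64%, against 6.4% and 7.76%. The part of these differences in the count was not tested. With each age in its own batch (below, the separate batches), age and batch cannot be told apart. There the nontransgenic hearts gave 3162 calls among 13112 genes (24.1%, 13.1% higher and 11.1% lower). Of these genes 1382 were among the 3035 of the shared batch. The separate batches include RNA of every P21 heart and of most 5-week hearts of the shared batch. Calls that recur there are therefore not independent.

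**Figure D1:**
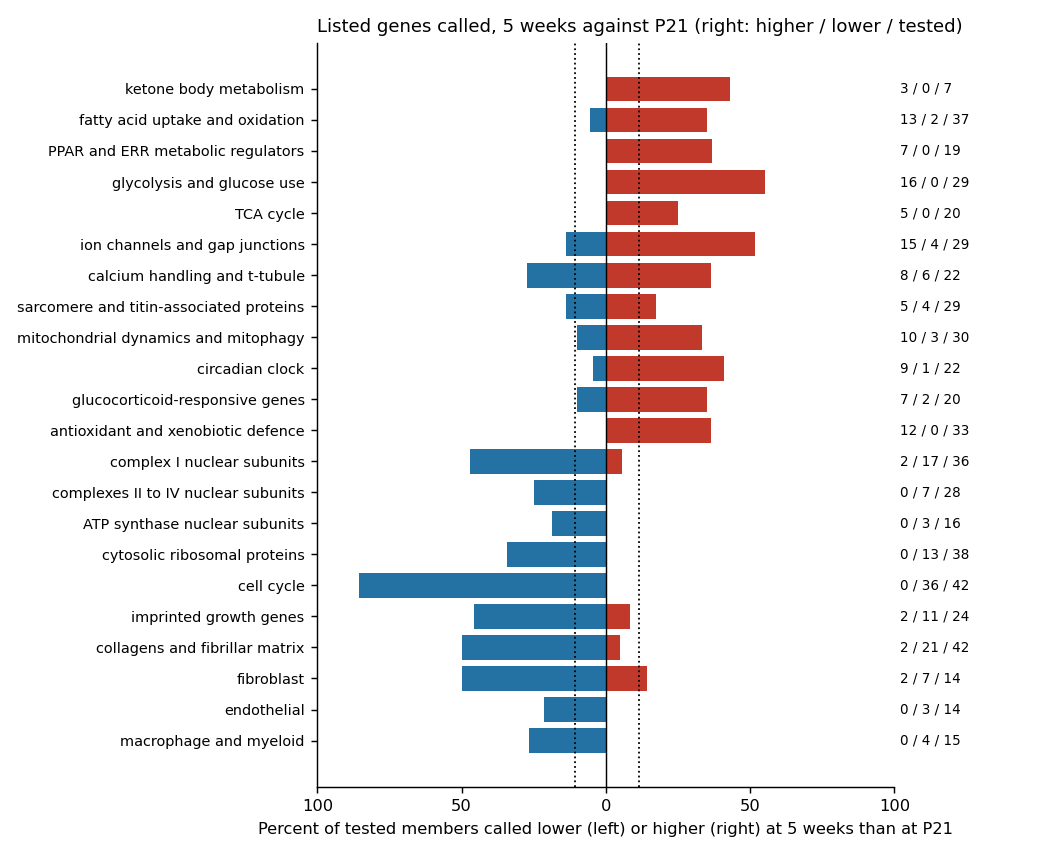
Share of tested members of each gene list that were called lower (left) or higher (right) at 5 weeks than at P21, in percent, with the count higher, lower and tested at the right edge. Dotted lines mark the shares over all genes tested, 11.6% higher and 10.8% lower. Cell cycle and collagen lists lie far to the left, and glycolysis and ion channels far to the right.

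In the shared batch, genes of fuel use rose in larger shares than the background, and the lowest adjusted p of all 13534 genes belonged to Bdh1. It encodes the mitochondrial enzyme that turns the ketone body beta-hydroxybutyrate into acetoacetate (chromosome 16, bases 31422297 to 31458901, mm10). Its level was 218, 187, 160.4 and 108 CPM in the 5-week libraries, against 2.55, 5.00 and 2.22 CPM in the P21 libraries. All 4 hearts of 5 weeks lay more than an order of magnitude above every P21 heart. The log2 fold change was 5.65 ± 0.26 (standard error; adjusted p = 6.19e-10). Nearly all of the change fell in the later step, since the P1 libraries held 3.41 to 5.36 CPM (median 4.91). In nontransgenic hearts with each age in its own batch, in part the same hearts, the change was 4.68 ± 0.46. In tet-off hearts, which are other hearts, the change was 4.74 ± 0.29. Over all alternative settings it stayed between 4.67 and 6.12. RefSeq lists 2 transcription starts for Bdh1. The windows from 250 bases before to 50 bases after each, read on the plus strand of GRCm38.p6, are shown since this gene heads the comparison. Neither holds any of the 7 motifs searched below, so no letters are capitals.
Bdh1 at chr16:31422047-31422346: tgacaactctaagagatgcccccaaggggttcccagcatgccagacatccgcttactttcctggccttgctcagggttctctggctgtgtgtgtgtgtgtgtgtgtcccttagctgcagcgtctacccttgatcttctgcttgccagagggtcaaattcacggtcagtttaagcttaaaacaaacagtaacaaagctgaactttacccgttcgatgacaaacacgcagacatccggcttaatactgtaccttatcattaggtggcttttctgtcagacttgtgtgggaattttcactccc
Bdh1 at chr16:31428503-31428802: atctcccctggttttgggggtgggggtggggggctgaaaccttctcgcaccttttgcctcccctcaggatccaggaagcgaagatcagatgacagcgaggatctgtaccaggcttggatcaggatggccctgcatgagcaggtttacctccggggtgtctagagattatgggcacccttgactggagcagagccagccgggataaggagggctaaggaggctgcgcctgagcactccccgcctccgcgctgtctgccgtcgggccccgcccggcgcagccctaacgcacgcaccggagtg

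**Figure D2:**
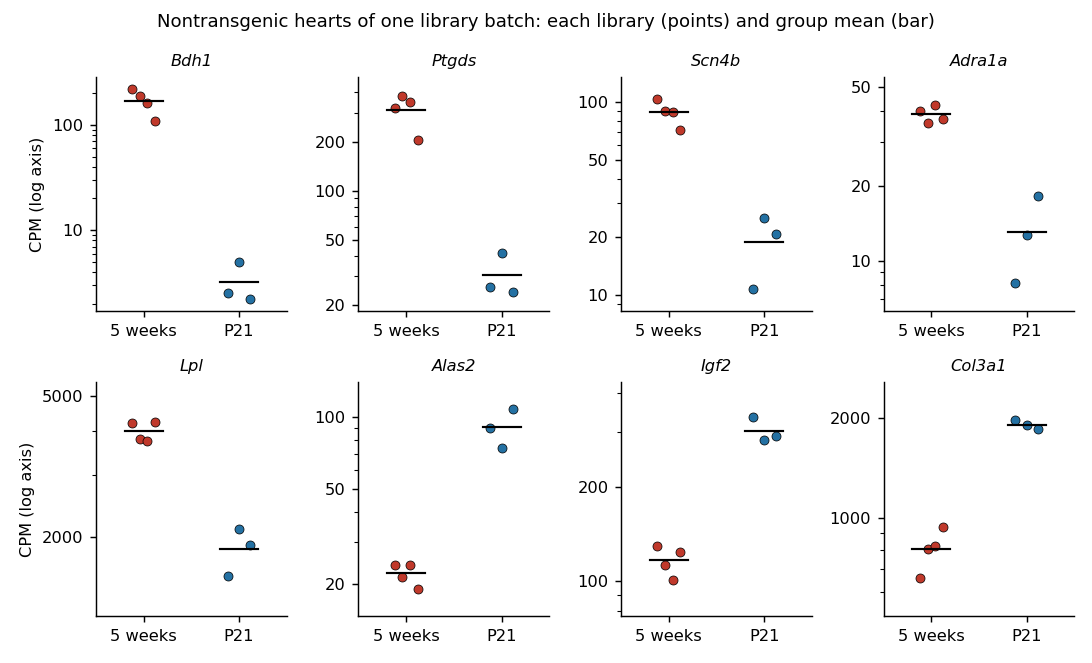
Level of 8 genes in each library, in CPM on a log axis, with 5 weeks left of P21 in each panel; points are libraries and bars are means. Bdh1, Ptgds, Scn4b, Adra1a and Lpl are higher in all 4 hearts of 5 weeks, and Alas2, Igf2 and Col3a1 are lower in all 4.

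Of 7 tested genes of ketone body metabolism 3 rose and none fell, with a median log2 fold change of 0.24, against -0.03 over all genes. Oxct1, the enzyme that commits acetoacetate to oxidation, was at 1036, 994, 987 and 937 CPM at 5 weeks, against 557, 652 and 615 CPM at P21. The groups did not overlap (0.70 ± 0.11, adjusted p = 0.000356). In the separate batches of each age Oxct1 gave 0.09 (adjusted p = 0.809). Slc16a1, which carries lactate and ketone bodies across the membrane, missed the threshold (0.24 ± 0.09, adjusted p = 0.0568). In the separate batches Slc16a1 was called, at 0.51 (adjusted p = 0.0154).

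Of 37 genes of fatty acid uptake and oxidation 13 rose and 2 fell (median 0.24). Lpl, the lipase that frees fatty acids from circulating triglyceride, led the named members. It stood at 4203, 3794, 3727 and 4219 CPM at 5 weeks and at 1561, 2114 and 1902 CPM at P21 (1.10 ± 0.13, adjusted p = 3.58e-05). The 2 groups were far apart, and P1 hearts had been lower still, at 511 to 655 CPM. Pnpla2, the lipase that opens the cell's own fat stores, was at 443 to 628 CPM at 5 weeks against 241 to 329 CPM at P21 (0.82 ± 0.13, adjusted p = 0.000437). Cpt2, of the carnitine shuttle, rose by 0.66 ± 0.12 (adjusted p = 0.00107), and Acsl1, which activates fatty acids, by 0.70 ± 0.13 (adjusted p = 0.00152). Acsl1 was not called in the separate batches (0.38, adjusted p = 0.107). Acadm, a dehydrogenase of the oxidation cycle itself, had overlapping groups, 1199 to 1379 CPM at 5 weeks and 990.5 to 1232 CPM at P21 (adjusted p = 0.361). Without P21_ntg_10547-1 the list's count was 7 higher and 1 lower, where 761 of all 13735 genes were higher and 665 lower. In the separate batches 6 of the 37 were higher and 2 lower, where 13.1% of all genes were higher and 11.1% lower.

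Of 19 regulators of the PPAR and ERR families and their partners, 7 rose and none fell (median 0.23). These nuclear receptors and cofactors drive genes of oxidative metabolism. Esrrb was at 46.1, 43.6, 43.3 and 43.0 CPM at 5 weeks, against 16.9, 21.5 and 24.8 CPM at P21. The groups were well separated, and P1 hearts (15.7 to 21.3 CPM) lay near the P21 level. Its change was 1.07 ± 0.12 (adjusted p = 2.84e-05). Esrrg rose by 0.74 ± 0.12 (adjusted p = 0.000324) and Ppara by 0.68 ± 0.09 (adjusted p = 0.000126), and Klf15, a regulator of lipid and amino acid use, by 0.77 ± 0.14 (adjusted p = 0.000871). Ppara was not called in the separate batches (0.26, adjusted p = 0.123) or in tet-off hearts (-0.19, adjusted p = 0.478). Klf15 was called in the separate batches (0.72, adjusted p = 0.00701) and not in tet-off hearts (-0.39, adjusted p = 0.0985). Its age effects differed by -1.10 (adjusted p = 0.0238), tet-off minus nontransgenic.

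Glucose genes moved in the same direction. Of 29 genes of glycolysis and glucose use, 16 rose and none fell (median 0.46), and 10 rose and none fell without P21_ntg_10547-1. In the separate batches 15 rose and 2 fell. In tet-off hearts none of the 29 was called, where 4.43% of all genes were higher and 3.59% lower. Pfkl, a phosphofructokinase isoform, was at 226, 244, 231 and 209.8 CPM at 5 weeks, against 124, 133 and 136 CPM at P21. No library of 5 weeks came near the P21 range (0.80 ± 0.09, adjusted p = 2.75e-05). Gys1, muscle glycogen synthase, rose by 0.72 ± 0.11 (adjusted p = 0.000258) and Slc2a1, the fetal-type glucose transporter, by 0.80 ± 0.16 (adjusted p = 0.00183). Slc2a1 had declined in the step before, with 20.3 to 29.0 CPM at P1, 9.44 to 11.2 CPM at P21 and 14.9 to 20.8 CPM at 5 weeks. Gapdh, often used as a reference transcript, was at 1666 to 2232 CPM at 5 weeks and 1429 to 1617 CPM at P21, and was not called (adjusted p = 0.0697). In the separate batches Gapdh was called, at 0.83 (adjusted p = 0.00231). Of 20 genes of the TCA cycle 5 rose and none fell (median 0.21). In the separate batches 3 rose and 3 fell, where the shares over all genes were 13.1% higher and 11.1% lower. Pcx, which feeds the cycle from pyruvate, rose by 1.33 ± 0.20 (adjusted p = 0.000218) and Idh2 by 0.75 ± 0.12 (adjusted p = 0.00035). Cs, citrate synthase, had overlapping groups, at 1918 to 2176 CPM at 5 weeks and 1434 to 2028 CPM at P21 (adjusted p = 0.203).

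Genes of the cell cycle fell again in this step. Of 42 tested members 36 fell and none rose (median -1.34), and 41 had been lower at P21 than at P1. Summed over the list, the level was 1558 to 1842 CPM at P1, 536 to 718 CPM at P21 and 416 to 462 CPM at 5 weeks. Ccnb2, a cyclin of mitosis, was at 0.718, 0.723, 0.498 and 0.735 CPM at 5 weeks, against 6.38, 1.10 and 3.04 CPM at P21. The groups did not overlap, and the highest P21 value was that of P21_ntg_10547-1. Its change was -2.39 ± 0.51 (adjusted p = 0.00348). Bub1b, a kinase of the spindle checkpoint, was at 0.622 to 1.15 CPM at 5 weeks and 1.95 to 7.82 CPM at P21 (-2.37 ± 0.43, adjusted p = 0.00117). Kif22, a motor of chromosome arms, fell by 2.56 on the log2 scale (adjusted p = 0.000877), and Aspm, of the spindle pole, by 2.63 (adjusted p = 0.0023). The 5-week means of these 4 genes were 0.44 to 0.83 CPM, so the sizes of their falls rest on few reads. For each of the 4 genes the same P21 heart was highest. Without it the log2 fold changes were -1.54 for Ccnb2, -1.54 for Bub1b, -2.01 for Kif22 and -2.12 for Aspm, and all 4 were still called. Without it 23 members fell and none rose, and with each age in its own batch 31 of 40 fell and none rose. In tet-off hearts, where 8.02% of 13225 genes were called (4.43% higher and 3.59% lower), 4 of 40 fell and none rose.

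**Figure D3:**
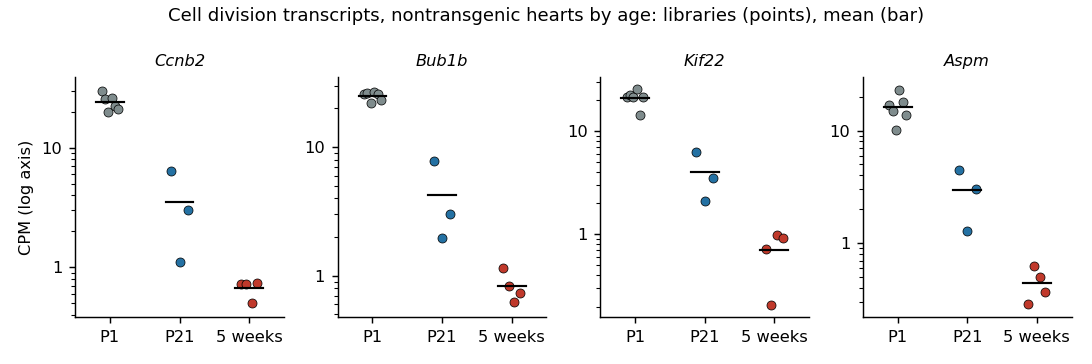
Level of 4 mitotic genes (Ccnb2, Bub1b, Kif22 and Aspm) in the nontransgenic libraries of the shared batch at P1, P21 and 5 weeks, in CPM on a log axis. Each point is a library; the P21 hearts spread widely, and all 4 hearts of 5 weeks lie below them.

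Part of the cell cycle genes that fell carry a short element in their promoters. Windows of RefSeq promoters were available for 30 of the 36 members that fell. The cell cycle homology region, TTTGAA on either strand, occurred in 17 of those 30 (56.7%), against 20.2% of 27018 genes with a window. The E2F core TTGGCGC occurred in 7 (23.3%, against 2.85%), among them 4 Mcm genes of the replicative helicase, and TTCCCGC in 2 (6.67%, against 5.29%). The list was made of genes of one function, and a match is a description of these letters, not a bound site. The windows of Ccnb2 and Bub1b are shown as the members with the values above, 250 bases before to 50 after the start in GRCm38.p6, with TTTGAA in capitals. In Ccnb2, on the minus strand, the element begins 167 bases before the start and again 4 bases after it, and in Bub1b, on the plus strand, 40 bases after it.
Ccnb2 at chr9:70421505-70421804: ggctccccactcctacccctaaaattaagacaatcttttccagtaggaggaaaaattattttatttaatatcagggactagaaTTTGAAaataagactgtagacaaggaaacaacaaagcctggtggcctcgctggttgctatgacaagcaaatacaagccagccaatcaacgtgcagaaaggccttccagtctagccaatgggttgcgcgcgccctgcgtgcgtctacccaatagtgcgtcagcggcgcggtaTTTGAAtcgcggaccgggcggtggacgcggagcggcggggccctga
Bub1b at chr2:118597961-118598260: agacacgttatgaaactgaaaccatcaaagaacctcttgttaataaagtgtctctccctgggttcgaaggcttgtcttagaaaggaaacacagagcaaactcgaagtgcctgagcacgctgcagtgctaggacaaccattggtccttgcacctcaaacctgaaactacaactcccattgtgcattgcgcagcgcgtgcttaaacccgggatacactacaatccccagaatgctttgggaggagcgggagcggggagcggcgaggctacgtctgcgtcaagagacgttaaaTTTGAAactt

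Of 29 ion channel and gap junction genes 15 rose and 4 fell (median 0.41), and 9 rose and 4 fell without P21_ntg_10547-1. The count of falls was 2 when any of 5wk_ntg_15928-7, 5wk_ntg_15933-3, 5wk_ntg_15935-10 or P21_ntg_10547-2 was left out. Scn4b, a beta subunit of the cardiac sodium channel, was at 104, 89.7, 88.8 and 71.8 CPM at 5 weeks, against 10.8, 25.3 and 20.8 CPM at P21. The groups lay far apart (2.23 ± 0.21, adjusted p = 3.79e-06), and P1 hearts had held 3.08 to 5.33 CPM. Kcnv2, a modifier subunit of potassium channels, was at 21.1 to 28.5 CPM at 5 weeks and 6.78 to 10.5 CPM at P21 (1.40 ± 0.22, adjusted p = 0.000324). Cacna1c, the pore of the L-type calcium channel, rose by 0.75 ± 0.12 (adjusted p = 0.000457). Kcne1, the accessory subunit of the slow potassium current, went the other way. It was at 2.58, 2.79, 4.11 and 3.67 CPM at 5 weeks, against 10.6, 8.98 and 4.21 CPM at P21 (-1.32 ± 0.24, adjusted p = 0.00107). Its groups nearly touched, at 4.11 and 4.21 CPM, and at P1 it had been at 106 to 125 CPM.

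Among 23 genes of autonomic and adrenergic signalling 4 rose and none fell (median 0.10). Adra1a, an alpha-1 adrenergic receptor, was at 40.1, 35.9, 42.2 and 37.3 CPM at 5 weeks, against 8.16, 12.7 and 18.2 CPM at P21. The 5-week hearts were tightly grouped and all above the P21 hearts (1.59 ± 0.19, adjusted p = 3.34e-05). At P1, in whole heart, the receptor was at 0.227 to 0.979 CPM, the lowest of the 3 groups.

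Calcium handling and t-tubule genes split, 8 of 22 higher and 6 lower (median 0.11), and 4 higher and 4 lower without P21_ntg_10547-1. Without 5wk_ntg_15927-6 the count of falls was 3. The greatest fall of the list was that of Sln (-2.33), which is also on the atrial list below. Atp2a2, the calcium pump of the sarcoplasmic reticulum, was at 13632, 13181, 12819 and 13903 CPM at 5 weeks, against 6404, 9851 and 8387 CPM at P21. The groups did not overlap (0.70 ± 0.17, adjusted p = 0.00629). Ryr2, the release channel, rose by 0.60 ± 0.15 (adjusted p = 0.0105). Neither was called in the separate batches, at 0.32 (adjusted p = 0.108) for Atp2a2 and 0.07 (adjusted p = 0.751) for Ryr2. Casq1, the calsequestrin of skeletal muscle, fell to 253 to 261 CPM at 5 weeks against 397 to 509 CPM at P21 (-0.81 ± 0.17, adjusted p = 0.00255). Bin1, which shapes t-tubules, was at 8.71 to 11.1 CPM at 5 weeks and 12.7 to 19.2 CPM at P21 (-0.77 ± 0.14, adjusted p = 0.00117), and at -0.24 with each age in its own batch (adjusted p = 0.17).

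Of 29 sarcomere genes 5 rose and 4 fell (median -0.03) in the shared batch, and 9 rose and 3 fell (median 0.19) in the separate batches. Those that fell in the shared batch were Tnni1 and, also on the atrial list below, Myl7, Mybphl and Myl4. P21_ntg_10547-2 stood apart in atrial genes, with Myl7 at 1723 CPM against 215 and 197 CPM in the other P21 hearts. Leaving out single libraries gave 1 (without P21_ntg_10547-1) to 7 (without P21_ntg_10547-2) higher and 1 (without P21_ntg_10547-2 or 5wk_ntg_15927-6) to 5 (without P21_ntg_10547-5) lower. Myh6, the adult myosin heavy chain, was at 53351, 54546, 49507 and 48734 CPM at 5 weeks, against 26166, 44605 and 33875 CPM at P21. Its groups did not overlap, yet the P21 hearts were so uneven that it was not called (0.56 ± 0.21, adjusted p = 0.0673). In the separate batches Myh6 was called, at 0.65 (adjusted p = 0.0203). Mybpc3, myosin binding protein C, was called (0.45 ± 0.15, adjusted p = 0.0385) but lost the call in 11 of 20 alternatives. Tnni1, the fetal troponin I, was at 10.8, 7.13, 11.3 and 16.9 CPM at 5 weeks, against 78.0, 16.7 and 8.65 CPM at P21. P21_ntg_10547-1 alone was high, the other P21 hearts overlapped with 5 weeks, and the call (-1.62 ± 0.48, adjusted p = 0.0217) was lost in 9 of 19 alternatives, with -0.19 (adjusted p = 0.692) without that library. At P1 it had been at 2086 to 2503 CPM.

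Of 24 imprinted growth genes 11 fell and 2 rose (median -0.63), and 20 had been lower at P21 than at P1. No member rose when P21_ntg_10547-1 or P21_ntg_10547-5 was left out. Igf2, the fetal growth factor expressed from the paternal allele, was at 129, 112, 100.3 and 123 CPM at 5 weeks, against 335, 283 and 291 CPM at P21. Every heart of 5 weeks was below every P21 heart (-1.38 ± 0.13, adjusted p = 2.6e-06). At P1 the level was 2074 to 2769 CPM. H19, the noncoding RNA of the neighbouring maternal allele, was at 47.3 to 63.02 CPM at 5 weeks and 132 to 262 CPM at P21 (-1.70 ± 0.21, adjusted p = 3.56e-05). Mest fell to 15.4, 7.44, 17.4 and 14.9 CPM at 5 weeks, against 47.4, 26.7 and 25.8 CPM at P21 (-1.30 ± 0.25, adjusted p = 0.00142). In the separate batches Igf2 (-1.01) and Mest (-1.72) were called again, and H19 was not (-0.79, adjusted p = 0.0735). In tet-off hearts Igf2 fell by 1.17 on the log2 scale (adjusted p = 0.00219).

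The growth hormone, IGF and insulin list split, with 4 of 22 higher and 3 lower, and 2 higher and 1 lower without P21_ntg_10547-1. Without 5wk_ntg_15927-6 the rises were 2, and without 5wk_ntg_15935-10 the falls were 5. Igf1, the growth factor that growth hormone induces, was at 12.8, 11.9, 17.5 and 17.8 CPM at 5 weeks, against 27.1, 19.6 and 21.6 CPM at P21 (-0.62 ± 0.14, adjusted p = 0.00533), and missed the threshold without P21_ntg_10547-1 (-0.47, adjusted p = 0.0503). Foxo3, a transcription factor held back by insulin signalling, was at 63.1 to 86.7 CPM at 5 weeks and 37.1 to 39.9 CPM at P21 (0.89 ± 0.15, adjusted p = 0.000545). Pik3r1, the regulatory subunit of phosphoinositide kinase, rose by 0.79 ± 0.12 (adjusted p = 0.000363). In tet-off hearts Foxo3 was at -0.31 (adjusted p = 0.283) and Pik3r1 at -0.83 (adjusted p = 0.0134). The age effects differed between the genotypes, by -1.35 for Foxo3 (adjusted p = 0.0219) and -1.39 for Pik3r1 (adjusted p = 0.000482), tet-off minus nontransgenic on the log2 scale.

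Of 42 collagens and fibrillar matrix genes 21 were lower, 2 were higher and 19 were not called (median -0.46), and their summed level was 8076 to 9180.1 CPM at 5 weeks and 12986 to 14419 CPM at P21. Col3a1, a fibrillar collagen of loose tissue, was at 659.7, 807, 822 and 937 CPM at 5 weeks, against 1973, 1899 and 1855 CPM at P21. The P21 hearts were nearly equal and all far above those of 5 weeks (-1.24 ± 0.18, adjusted p = 0.000218). Its P1 level was 942 to 1873 CPM. Col1a1, the main fibrillar collagen, fell by 0.96 on the log2 scale (adjusted p = 0.00147) and Postn, a matrix protein of growing and injured tissue, by 1.18 (adjusted p = 7e-04). Col5a3 was at 36.9, 35.8, 30.5 and 31.8 CPM at 5 weeks, against 74.3, 87.7 and 86.1 CPM at P21 (-1.29 ± 0.13, adjusted p = 6.47e-06). At P1 it had been at 9.35 to 16.5 CPM, below both later ages. With each age in its own batch Col5a3 was at -1.03 in nontransgenic hearts and 0.54 in tet-off hearts (adjusted p = 0.203 in tet-off). The age effects differed by 1.56 (adjusted p = 0.013), tet-off minus nontransgenic. In tet-off hearts 2 of the 42 were lower and none higher, where 3.59% of all genes were lower and 4.43% higher. In nontransgenic hearts the list had 15 lower and 1 higher without P21_ntg_10547-1, and 17 lower and 3 higher with each age in its own batch. Fibroblast markers moved with it, 7 of 14 lower and 2 higher, with a sum of 4891 to 5980.2 CPM at 5 weeks and 6570.0 to 7226 CPM at P21. That list holds 3 of the collagens, and the part of fibroblast number in the fall was not tested. Of 21 matrix proteases and inhibitors 3 rose and 1 fell, with 1 rise without P21_ntg_10547-1 and 4 falls without 5wk_ntg_15935-10. Mmp14, a membrane protease, was at 19.2 to 20.98 CPM at 5 weeks and 40.5 to 47.8 CPM at P21 (-1.12 ± 0.15, adjusted p = 8.73e-05). Timp3, an inhibitor of such proteases, rose by 0.61 ± 0.12 (adjusted p = 0.00237). In tet-off hearts Mmp14 was at -0.05 (adjusted p = 0.848) and Timp3 at -1.32 (adjusted p = 0.00143). The age effects differed by 1.03 for Mmp14 (adjusted p = 0.00531) and -1.83 for Timp3 (adjusted p = 0.000176), tet-off minus nontransgenic.

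Part of the clock genes and of the glucocorticoid-responsive genes rose. The clock is a loop in which Clock and Arntl switch on Per, Cry and Nr1d genes, which in turn hold them back, with Dbp, Tef and Ciart among the outputs. Of 22 clock genes 9 rose and 1 fell (median 0.29), and 10 rose and 1 fell with each age in its own batch. Gm129, the file's symbol for Ciart, a repressor of the loop, was at 26.7, 18.5, 12.3 and 13.2 CPM at 5 weeks, against 5.87, 4.83 and 7.02 CPM at P21. All 4 hearts of 5 weeks were higher (1.60 ± 0.25, adjusted p = 0.000309). Nr1d1, a heme-binding repressor, was at 251, 266, 166 and 146 CPM at 5 weeks, against 91.2, 119 and 108 CPM at P21 (0.97 ± 0.19, adjusted p = 0.00161). Dbp was at 90.2, 73.2, 48.1 and 43.0 CPM at 5 weeks, against 29.1, 37.1 and 36.1 CPM at P21 (0.91 ± 0.20, adjusted p = 0.00449). For all 3 genes 5wk_ntg_15927-6 and 5wk_ntg_15928-7, the 5-week hearts with low Xist, lay above the other 2 hearts of their age. The part of sex in that spread was not tested, and the labels do not give the hour at which hearts were taken. Npas2, which can stand in for Clock, was the member that fell (-0.88 ± 0.18, adjusted p = 0.00267), and it was not called in the separate batches (-0.65, adjusted p = 0.132).

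The promoter of Ciart carries the E-box that Clock and Arntl bind, CACGTG, 3 times, at 116, 58 and 44 bases before the start. It is shown for that reason, on the minus strand of GRCm38.p6, with the E-boxes in capitals. Windows were available for 7 of the 9 clock genes that rose, and 2 of them, Tef and Ciart, held an E-box, against 8.09% of 27018 genes. The D-box core TTATGNA was in 1 of the 7 (11.2% of genes) and the ROR element AGGTCA in 1 (18.1% of genes). The glucocorticoid response element core TGTTCT was in 0 of the 6 windows of glucocorticoid-responsive genes that rose, and in 21.3% of genes, which says only that those letters are not in these windows.
Ciart at chr3:95882179-95882478: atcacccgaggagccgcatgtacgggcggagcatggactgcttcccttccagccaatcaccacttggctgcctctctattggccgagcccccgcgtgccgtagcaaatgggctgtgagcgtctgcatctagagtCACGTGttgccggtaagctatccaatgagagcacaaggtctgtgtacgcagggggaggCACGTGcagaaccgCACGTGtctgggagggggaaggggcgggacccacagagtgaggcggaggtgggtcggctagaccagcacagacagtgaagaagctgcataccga

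Of 20 glucocorticoid-responsive genes 7 rose and 2 fell (median 0.09), and 4 fell without 5wk_ntg_15935-10. Zbtb16, a zinc finger repressor that steroid hormones induce, was at 240.2, 205, 220.0 and 335 CPM at 5 weeks, against 119, 75.5 and 77.0 CPM at P21. The groups did not overlap (1.46 ± 0.28, adjusted p = 0.00141). Mt2, a metallothionein, was at 45.2, 24.2, 35.3 and 125 CPM at 5 weeks, against 9.18, 8.98 and 7.02 CPM at P21 (2.73 ± 0.44, adjusted p = 0.000444), with 5wk_ntg_15935-10 the highest. Hsd11b1, which makes active glucocorticoid within cells, was at 19.8, 18.4, 9.33 and 10.8 CPM at 5 weeks, against 5.27, 3.73 and 4.44 CPM at P21 (1.71 ± 0.29, adjusted p = 0.000611). Tsc22d3, a standard target of the hormone receptor, had overlapping groups (adjusted p = 0.349).

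The age effect on these genes was not alike in the 2 genotypes. With each age in its own batch for both genotypes, the age effect differed between them for 87 of 13632 genes (0.638%), more positive in tet-off hearts for 0.235% and more negative for 0.403%. By that test 10 of the 22 clock genes were more negative and 1 was more positive, and 5 of the 20 glucocorticoid-responsive genes were more negative and none more positive. Zbtb16 was at 46.9 to 54.2 CPM in tet-off hearts of 5 weeks and 262 to 351 CPM in those of P21. In nontransgenic hearts of the same batches it was at 166 to 396 CPM at 5 weeks and 68.7 to 131 CPM at P21. The change ran in opposite directions, -2.61 ± 0.15 in tet-off and 1.37 ± 0.24 in nontransgenic hearts, and the difference was -3.99 (adjusted p = 4.57e-06). Dbp was at 31.0 to 38.5 CPM in tet-off hearts of 5 weeks and 33.8 to 51.4 CPM in those of P21, against 65.1 to 100.4 CPM in nontransgenic hearts of 5 weeks and 30.6 to 46.1 CPM in those of P21. Its age effects differed by -1.44 (adjusted p = 0.00157), and those of Gm129 by -2.06 (adjusted p = 0.00265). Per2 and Arntl, chosen after their values were seen, differed by -2.88 (adjusted p = 4.27e-05) and 2.93 (adjusted p = 0.000176), and so in opposite directions. Nr1d1 rose in both genotypes, by 1.41 in tet-off and 1.21 in nontransgenic hearts (adjusted p of the difference 0.977). Batch and age are a single split within each genotype here. The 3 tet-off hearts of 5 weeks share a number in their titles, as do 4 of the 5 of P21, and the labels do not say what it marks.

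**Figure D4:**
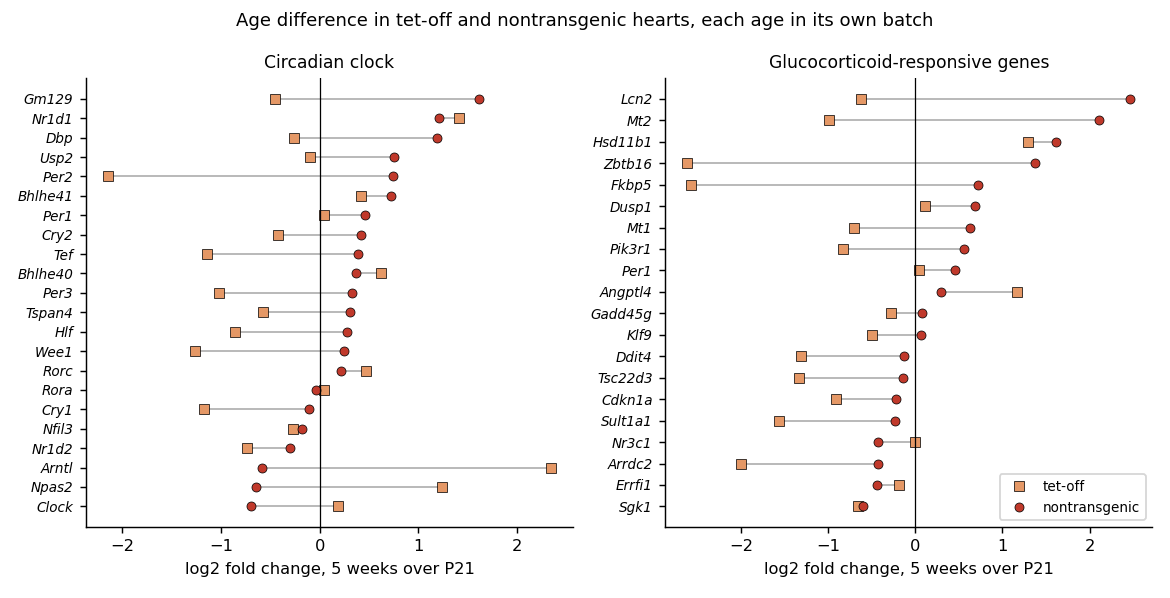
Log2 fold change of 5 weeks over P21 for clock and glucocorticoid-responsive genes in tet-off (squares) and nontransgenic (circles) hearts, each age in the batch of its own. A line joins the squares and circles of the same gene. Zbtb16 is lower at 5 weeks in tet-off hearts (-2.61) and higher at 5 weeks in nontransgenic hearts (1.37).

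Part of the subunits of the respiratory chain and of the ribosome fell in the shared batch, and the counts moved with the libraries and the batch used. Of 36 nuclear subunits of complex I 17 fell and 2 rose (median -0.40), of 28 of complexes II to IV 7 fell and none rose, and of 16 of ATP synthase 3 fell and none rose. Of 38 cytosolic ribosomal proteins 13 fell and none rose (median -0.44). Ndufa12, an accessory subunit of complex I, was at 296, 277, 295 and 269.5 CPM at 5 weeks, against 662, 509.8 and 666 CPM at P21. The groups were clearly apart (-1.11 ± 0.16, adjusted p = 0.000218). In the separate batches, which include RNA of these same 3 P21 hearts and of 3 of the 5-week hearts, it was at 669 to 949 CPM at 5 weeks and 429 to 616 CPM at P21. There the change was 0.57 ± 0.14 (adjusted p = 0.0109), the reverse direction. Cox7c (-0.94 ± 0.25, adjusted p = 0.0129) and Uqcrq (-0.78 ± 0.17, adjusted p = 0.00376) were at 0.10 and 0.01 in the separate batches and not called there. Rplp1, a ribosomal stalk protein, changed by -0.98 ± 0.23 (adjusted p = 0.0069) in the shared batch and by -0.06 in the separate batches (adjusted p = 0.841). Counts for complex I were 4 lower and 3 higher in the separate batches, and 7 lower and 1 higher without P21_ntg_10547-1 (9 and 1 without 5wk_ntg_15928-7). Without P21_ntg_10547-1 complexes II to IV had 1 lower and ATP synthase 0, and without 5wk_ntg_15935-10 complexes II to IV had 4 lower. For ribosomal proteins 18 of 37 fell and none rose in the separate batches. In the shared batch the count of ribosomal proteins that fell was 0 without P21_ntg_10547-1, 21 without P21_ntg_10547-2, 8 without P21_ntg_10547-5 or 5wk_ntg_15927-6, 3 without 5wk_ntg_15928-7, 4 without 5wk_ntg_15933-3 and 5 without 5wk_ntg_15935-10.

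The median summed exon length was 666 bases for the complex I list and 740.0 bases for the ribosomal list, and short transcripts as a class were lower at 5 weeks in the shared batch. Of 932 tested genes with a summed exon length under 1000 bases, 23.5% fell and 2.47% rose (median -0.32). Of 4196 genes of 4000 bases or more, 7.77% fell and 16.2% rose (median 0.04). The rank correlation of log2 fold change with exon length over at most 13533 genes was 0.19 in the shared batch and -0.01 with each age in its own batch. With GC content, over at most 13442 genes, it was 0.17 in the shared batch and 0.40 with each age in its own batch, and 0.30 in tet-off hearts. These are descriptions over genes of the same libraries. With the length trend removed, 9 complex I subunits fell and 7 rose, and 5 ribosomal proteins fell and none rose. The lists of glycolysis, cell cycle and matrix kept their direction. They had 19 glycolysis genes higher and none lower, 35 cell cycle genes lower and none higher, and 22 matrix genes lower and 2 higher.

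**Figure D5:**
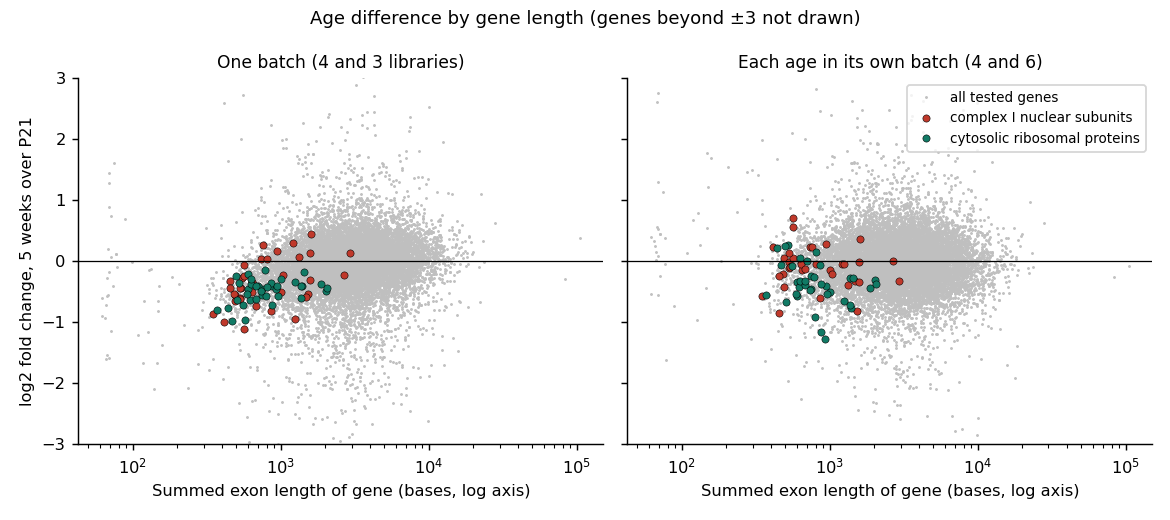
Log2 fold change of 5 weeks over P21 against summed exon length in bases on a log axis, one point a gene, in the shared batch (left) and with each age in its own batch (right). Complex I subunits are red and ribosomal proteins green; genes beyond a log2 fold change of 3 in either direction are not drawn. Short genes lie below 0 in the left panel (median -0.32 under 1000 bases) and near it in the right (-0.10).

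Of 30 genes of mitochondrial dynamics and mitophagy 10 rose and 3 fell (median 0.11), and 9 rose and none fell without P21_ntg_10547-1. Pink1, the kinase that marks damaged mitochondria, was at 724, 685, 629.8 and 642 CPM at 5 weeks, against 442, 466 and 496 CPM at P21. The groups did not overlap (0.52 ± 0.10, adjusted p = 0.00228). Optn and Sqstm1, receptors that link marked cargo to the autophagosome, rose as well. Optn was at 149, 138, 139 and 109.9 CPM at 5 weeks, against 53.3, 74.1 and 67.4 CPM at P21 (1.05 ± 0.12, adjusted p = 2.75e-05). Sqstm1 was at 482 to 515 CPM at 5 weeks and 239 to 288 CPM at P21 (0.88 ± 0.12, adjusted p = 8.59e-05). With each age in its own batch all 3 were called again, at 0.71 for Pink1, 0.72 for Optn and 0.57 for Sqstm1. Fundc1, a receptor that acts without Parkin, was at 11.3 to 14.2 CPM at 5 weeks and 18.1 to 24.5 CPM at P21 (-0.70 ± 0.18, adjusted p = 0.0124), and at -0.30 in the separate batches (adjusted p = 0.145). Mfn2 was at 1429, 1481, 1316 and 1287 CPM at 5 weeks, against 917, 1192 and 1099 CPM at P21, and its call was lost in 5 of 20 alternatives, among them without P21_ntg_10547-1 (0.27, adjusted p = 0.147). Park2, which encodes Parkin, was at 5.60, 5.89, 6.47 and 3.49 CPM at 5 weeks and 3.74, 4.32 and 3.39 CPM at P21. Its groups overlapped and it was not called (0.51 ± 0.22, adjusted p = 0.107).

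Of 33 antioxidant and xenobiotic genes 12 rose and none fell (median 0.33). In the separate batches 11 rose and 2 fell, and in tet-off hearts 1 rose and 5 fell (median -0.13). Nqo1, a quinone reductase, was at 58.3, 50.5, 49.6 and 42.1 CPM at 5 weeks, against 27.2, 25.7 and 30.3 CPM at P21 (0.86 ± 0.11, adjusted p = 6.73e-05), and at 0.36 in the separate batches (adjusted p = 0.21). Ces1d, a carboxylesterase, was at 72.0 to 118 CPM at 5 weeks and 24.7 to 63.9 CPM at P21 (1.11 ± 0.22, adjusted p = 0.00194). Of 26 genes of heat shock and protein folding 8 rose and 1 fell (median 0.17), and 5 rose and 1 fell without P21_ntg_10547-1. Hsph1, a cochaperone, was at 37.8 to 70.0 CPM at 5 weeks and 23.5 to 28.9 CPM at P21 (1.00 ± 0.16, adjusted p = 0.000442).

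Among genes of other cells, 3 of class II antigen presentation rose. Cd74, the chain that guards class II molecules on their way to the surface, was at 142, 126, 100.3 and 101 CPM at 5 weeks, against 46.2, 41.2 and 45.7 CPM at P21. Both groups were tight and far apart (1.40 ± 0.17, adjusted p = 2.95e-05). The class II chains H2-Aa (1.22 ± 0.22, adjusted p = 0.000985) and H2-Ab1 (0.97 ± 0.17, adjusted p = 0.000901) rose with it, and all 3 had been below 8 CPM at P1. They are the 3 of 15 antigen presentation genes that rose, beside 1 that fell. Macrophage markers did not rise, with 0 of 15 higher and 4 lower and a sum of 433 to 526 CPM at 5 weeks and 473 to 652 CPM at P21. The count of falls was 1 without P21_ntg_10547-1 or 5wk_ntg_15928-7, 2 without P21_ntg_10547-5 or 5wk_ntg_15933-3, and 6 without P21_ntg_10547-2. Cx3cr1, a chemokine receptor of resident macrophages, was at 17.4, 11.9, 15.8 and 8.27 CPM at 5 weeks, against 36.2, 32.4 and 38.5 CPM at P21 (-1.40 ± 0.16, adjusted p = 2.84e-05). In tet-off hearts Cx3cr1 was at 0.11 (adjusted p = 0.755). The age effects differed by 1.31 (adjusted p = 0.0281), tet-off minus nontransgenic.

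Alas2, which starts heme synthesis in red cell precursors, was at 24.1, 21.4, 24.1 and 19.1 CPM at 5 weeks, against 90.5, 74.4 and 108 CPM at P21. Every heart of 5 weeks was below every P21 heart (-2.03 ± 0.14, adjusted p = 1.26e-07), and the P1 hearts had been at 27.5 to 40.1 CPM. Slc4a1, the anion exchanger of red cells, was at 1.29 to 3.12 CPM at 5 weeks and 4.66 to 10.8 CPM at P21 (-1.95 ± 0.31, adjusted p = 0.000374). The fall of Alas2 was as large in the separate batches (-2.45) and in tet-off hearts (-2.37). Of 6 tested genes of red cells and platelets 3 fell, and the 2 that rose were Ppbp, a platelet chemokine (1.86 ± 0.36, adjusted p = 0.00157), and Itga2b, a platelet integrin (0.92 ± 0.32, adjusted p = 0.0485). In the separate batches 4 fell and none rose. The third that fell was Bpgm, which makes bisphosphoglycerate in red cells (-1.02 ± 0.10, adjusted p = 3.81e-06). Ppbp, Itga2b and Bpgm are named after their values were seen. Cldn5, a tight junction protein of endothelium, was at 14.2, 12.1, 17.3 and 14.3 CPM at 5 weeks, against 34.8, 28.1 and 34.6 CPM at P21 (-1.17 ± 0.14, adjusted p = 3.46e-05), while 3 of 14 endothelial markers fell and none rose. Of 12 mural cell markers 2 rose and 1 fell (median -0.05). Acta2, the smooth muscle actin, fell by 0.83 on the log2 scale (adjusted p = 0.000783) and was not called in the separate batches (-0.45, adjusted p = 0.0854), and Myh11, smooth muscle myosin, rose by 0.90 ± 0.24 (adjusted p = 0.012) with groups that overlapped.

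Of 13 atrial cardiomyocyte genes 6 fell and none rose. Without P21_ntg_10547-2 none fell and 1 rose, and without 5wk_ntg_15927-6 2 fell. Myl7, the atrial myosin light chain, was at 25.1, 216, 131 and 111 CPM at 5 weeks, against 215, 1723 and 197 CPM at P21, and Nppa was at 4927 CPM in P21_ntg_10547-2 against 574 to 631 CPM in the other P21 hearts. Without P21_ntg_10547-2 neither Myl7 (-0.77, adjusted p = 0.362) nor Nppa (-0.69, adjusted p = 0.395) was called. The summed atrial level was 296 to 1024 CPM at 5 weeks and 1112 to 8792 CPM at P21. Of 10 adipocyte genes 5 rose, and without 5wk_ntg_15928-7 4 rose and 1 fell. Cidec, a fat droplet protein, was at 2.44, 35.8, 2.86 and 2.02 CPM at 5 weeks, against 0.170, 0.169 and 0.234 CPM at P21. Car3, a carbonic anhydrase of fat and slow muscle, was at 11.8, 124, 21.6 and 20.6 CPM at 5 weeks, against 6.29, 1.78 and 0.936 CPM at P21 (3.85 ± 0.74, adjusted p = 0.00156). Without 5wk_ntg_15928-7 the change of Car3 was 2.52 and that of Cidec 3.63, and both were called. The lipid genes Fasn (765 CPM in that heart, 78.6 to 98.1 CPM in the other 3, and 41.0 to 50.3 CPM at P21) and Pck1 (81.6 CPM in that heart, 1.37 to 4.45 CPM in the other 3, and 0 to 0.765 CPM at P21) had the same heart highest, and were called without it, at 0.99 for Fasn and 2.94 for Pck1. Scgb1a1, a secreted protein of airway epithelium, was at 22.97, 252, 8.96 and 0.551 CPM at 5 weeks and at 0.117 CPM or less at P21. The part of tissue carried over from outside the ventricle in these values was not tested.

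Other steep rises included Ptgds and Cyp2b10. Ptgds, the synthase of prostaglandin D2, was at 320.3, 382, 348 and 206 CPM at 5 weeks, against 25.9, 41.7 and 24.0 CPM at P21 (3.36 ± 0.26, adjusted p = 4.14e-07). P1 libraries, of whole heart, held 133 to 241 CPM, so the P21 level was the lowest of the 3 groups. Ptgds was called in tet-off hearts too, at 1.95 (adjusted p = 0.01). Cyp2b10, a cytochrome P450 that xenobiotics induce in liver, was at 1.29 to 6.20 CPM at 5 weeks and 0 to 0.234 CPM at P21 (4.83 ± 0.77), and was highest in 5wk_ntg_15928-7, without which the change was 4.07. Among the greatest falls were Col26a1, at 0.517 to 2.74 CPM at 5 weeks and 7.12 to 7.84 CPM at P21 (-2.45 ± 0.32, adjusted p = 6.45e-05), and Trim10, a gene of red cell maturation, at 0 to 0.249 CPM at 5 weeks and 1.05 to 1.95 CPM at P21 (-3.12 ± 0.63, adjusted p = 0.00224). Fam124b was at 0, 0.310, 0.373 and 0.919 CPM at 5 weeks, against 2.81, 3.05 and 2.46 CPM at P21 (-2.88 ± 0.41, adjusted p = 0.000149), and its age effect differed in tet-off hearts by 1.94 (adjusted p = 0.0455).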

How the data were processed

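RNA sequencing was non-stranded, single-end and poly(A)-selected, per the labels' protocols. The submitters' processing notes name Bowtie2, TopHat2 2.0.10, HTSeq, Cufflinks 2.1 and the build mm10. The deposited count table holds raw counts per gene, as the authors counted them, for 23429 genes. The deposited FPKM table was used in alternatives only, as log2 of FPKM with a pseudocount of 1 or 0.1. Exon positions (other unit: bases) came from the deposited annotation.

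The 4 libraries of 5 weeks, 3 of P21 and 6 of P1 were fitted together (10 residual degrees of freedom) with edgeR 4.0.16 in R 4.3.3, with TMM scaling and its expression filter. The alternatives used DESeq2 1.42.0 and limma 3.58.1. Scripts were tested on simulated data. Figures were drawn with matplotlib 3.10.9. Counting without strand cannot separate overlapping antisense genes, and ribosomal proteins have near-identical copies, so their counts are uncertain.

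Named genes were Mfn2, Pink1 and Park2, then, of called genes that do not overlap and have a mean of 1 CPM or more, the 15 that rose most and the 15 that fell most, and up to 4 called and 2 uncalled members of each of 47 lists. Fewer are named here. The members, lists and this rule were chosen with earlier results of these data known. Some genes may not be reported here.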

Additional observations from a re-analysis of the deposited data

Results flagged for a closer look

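In the 4 libraries of 5 weeks, 16 of 106 named genes had a library whose gap to the nearest other library passed Dixon's critical value for its group (0.829 of the range). About 1 in 20 would pass among independent genes of normal spread. The named genes were chosen partly on these same values and vary together, so the count cannot be set against that share. Of these 16, 13 were set by 5wk_ntg_15928-7. It was high in fat and airway genes, at 252 CPM for Scgb1a1, 81.6 for Pck1, 35.8 for Cidec, 12.6 for Adipoq, 124 for Car3, 22.4 for Plin1, 765 for Fasn, 179 for Scd1 and 139 for Thrsp. In the same library Gys1 (259 CPM) and Pcx (67.5) were high, and Slc16a1 (204) and Rplp1 (362) low. Klf15 (48.6 CPM) and Ccnb2 (0.498) were low in 5wk_ntg_15933-3, and Ptbp1 (54.8) was low in 5wk_ntg_15927-6.

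The age effect differed between tet-off and nontransgenic hearts for 12 named genes (edgeR interaction term, each age in its own batch, log2, tet-off minus nontransgenic). It was lower in tet-off hearts for Zbtb16 (-3.99), Gm129 (-2.06), Timp3 (-1.83), Dbp (-1.44), Pik3r1 (-1.39), Foxo3 (-1.35), Tsc22d3 (-1.19) and Klf15 (-1.10). It was higher for Fam124b (1.94), Col5a3 (1.56), Cx3cr1 (1.31) and Mmp14 (1.03).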

How the results depend on the processing

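Leaving out each library in turn gave 1426 to 2867 called genes, against 3035 with all, and the lowest count came without P21_ntg_10547-1. The other settings stayed within 1.5 times: RLE scaling 3058, no filter 2829, DESeq2 2980, limma on FPKM 2189 to 2636, the 2 groups alone 3214, each age in its own batch 3162, and ribosomal precursor and mitochondrial transcripts left out 3078. Those chosen after seeing the data were a length trend removed (3137), a GC trend removed (3045), and 5wk_ntg_15928-7 and P21_ntg_10547-2 left out together (2126). With all 23 nontransgenic libraries of 17 hearts, a batch term and the heart as a replicate block, limma gave 2202. Heart numbers pair libraries of the same RNA across batches, never hearts across ages, and the within-heart correlation was 0.263. The tet-off comparison called 1061 genes, 1662 with DESeq2, and 390 to 1522 with each library left out. Of 2104 alternative values for 106 named genes, 1977 kept their direction and side of the threshold, 104 lost the call, 20 gained it and 3 reversed, all with each age in its own batch: Ndufa12 0.57, Cox7c 0.10 and Uqcrq 0.0107. The cause was not tested. Values under about 1 CPM, such as those of Trim10, Ttk, Ccnb2, Bub1b, Kif22 and Aspm at 5 weeks, rest on a few reads at this depth.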

Other observations

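Genes of sterol and fatty acid synthesis had no shared direction, with 7 of 29 higher and 4 lower at 5 weeks, and 6 higher and 4 lower without 5wk_ntg_15928-7 and 4 higher and 1 lower without P21_ntg_10547-1. Of 11 epicardial and mesothelial markers 4 fell and none rose, with a sum of 44.5 to 63.03 CPM at 5 weeks and 85.9 to 104.2 CPM at P21. In the separate batches of each age none of the 11 was called. Of 19 genes of thyroid hormone and retinoid handling 6 rose and 3 fell (2 rose without P21_ntg_10547-1, and 3 without 5wk_ntg_15928-7 or P21_ntg_10547-5), of 32 interferon-induced genes 2 rose and 3 fell (4 rose without P21_ntg_10547-5), and of 25 immediate early genes 3 rose and 1 fell. None of 6 Schwann and neural markers was called.

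Of 19 splicing regulators 2 rose and 3 fell (median -0.02). Rbfox1, a splicing factor of heart and brain, was at 83.1, 68.0, 73.4 and 69.6 CPM at 5 weeks, against 35.4, 51.2 and 44.8 CPM at P21 (0.75 ± 0.15, adjusted p = 0.00183). Ptbp1, a repressor of muscle and neural exons, was at 54.8 to 67.8 CPM at 5 weeks and 89.2 to 94.7 CPM at P21 (-0.52 ± 0.08, adjusted p = 0.00035), and at -0.06 with each age in its own batch (adjusted p = 0.77). Mitochondrially encoded transcripts were not called higher in the shared batch (0 of 13 higher, 1 lower), while 6 of 13 were higher with each age in its own batch and 8 of 13 in tet-off hearts.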
